A study of Mus musculus with 5 samples.

Results

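Genes of brown and white fat were followed in whole lung of female mice of 5 strains. The 10 genes listed were Ucp1, Cidea, Cidec, Adipoq, Plin1, Cfd, Fabp4, Lep, Retn and Pck1, and they were chosen because Ucp1, Cidea and Pck1 read very differently between these same arrays. Their differences are therefore given as descriptions and are not tested. By gene symbol 8 of the 10 had a probe set named for them alone, 13 probe sets in all, out of 18194 genes and 45101 probe sets on the array. No probe set was named for Plin1 or Cfd alone in the annotation used, and both are not analysed here. Probe sets with several symbols were not searched for them. Of the 8 genes, 7 reached an intensity of 64, the level taken as the floor for a usable signal, and they did so in every array, with 92.2 as their lowest value. Lep stayed under it throughout.

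The study concerns a mouse model of emphysema induced by elastase, but all lungs measured here were naive and had received no elastase. The strains were 4B(-/-) and 4B(+/+), knockout and wild type for the cyclic AMP phosphodiesterase PDE4B, 4D(-/-) and 4D(+/+), knockout and wild type for PDE4D, and C57, the parental C57BL/6J mice. The 4 lines began on a C57BL/6 × 129/Ola background and had at least 11 generations of backcrossing to C57BL/6J, so that wild-type lines and C57 are not the same stock. Frozen powder of 5 lungs per strain was prepared, RNA of 3 of them, selected after a Bioanalyzer check, was mixed, and 1 array was hybridised per strain. The sources used here give no ages. With 1 array per strain no difference has a replicate check and no p-value is given. The number of arrays limits the precision.

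Fat cells store triglyceride in lipid droplets and release hormones into the blood. White adipocytes hold 1 large droplet and brown adipocytes many small ones, and brown cells burn fatty acids for heat through the mitochondrial uncoupling protein encoded by Ucp1. In both, cyclic AMP raised by noradrenaline drives lipolysis, and in brown cells it also induces Ucp1. Lung parenchyma holds few adipocytes, while fat lies beside the lung in the mediastinum. Fabp4 is also made by capillary endothelium and macrophages.

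Promoter windows of 3 members are shown because these genes followed different array patterns below. Ucp1 stands for the brown fat genes, Pck1 for the gene that differed most between the wild-type lines, and Adipoq for the genes shared by all fat. Each window covers 250 bases before to 50 bases after the start of the gene in the RefSeq table of build GRCm38.p6, all on the plus strand: Ucp1 at chr8:83290098-83290397, Pck1 at chr2:173152823-173153122 and Adipoq at chr16:23146286-23146585. Capitals mark the motifs that a search found on either strand.
Ucp1: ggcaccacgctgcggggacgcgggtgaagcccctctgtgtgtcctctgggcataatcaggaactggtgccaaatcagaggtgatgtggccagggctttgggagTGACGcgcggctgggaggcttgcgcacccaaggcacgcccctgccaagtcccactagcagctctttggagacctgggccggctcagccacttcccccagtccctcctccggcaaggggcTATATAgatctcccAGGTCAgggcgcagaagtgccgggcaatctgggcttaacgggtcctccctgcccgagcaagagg
Pck1: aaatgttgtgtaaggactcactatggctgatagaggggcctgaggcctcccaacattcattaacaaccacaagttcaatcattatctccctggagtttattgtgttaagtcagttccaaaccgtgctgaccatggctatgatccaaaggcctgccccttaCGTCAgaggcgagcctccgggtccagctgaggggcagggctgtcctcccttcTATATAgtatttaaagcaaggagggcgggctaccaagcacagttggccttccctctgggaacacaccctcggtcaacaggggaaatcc
Adipoq: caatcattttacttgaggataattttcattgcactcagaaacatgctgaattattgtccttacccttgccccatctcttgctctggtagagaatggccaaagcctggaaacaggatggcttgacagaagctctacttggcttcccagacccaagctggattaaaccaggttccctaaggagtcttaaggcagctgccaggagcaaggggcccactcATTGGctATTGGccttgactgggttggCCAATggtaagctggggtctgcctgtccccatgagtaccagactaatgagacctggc

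The motifs searched, with the share of 32851 windows of the same length that held each, were the cyclic AMP response element TGACGTCA (1.79%), its core TGACG (20.8%), the nuclear receptor core AGGTCA (16.3%), a spaced repeat of that core, AGGTCANAGGTCA (0.0396%), the C/EBP motif TTGCGCAA (0.183%), CCAAT (37.4%), TATAAA (13.6%) and TATATA (5.67%). TGACG is contained in TGACGTCA. The Ucp1 window held TGACG at 147 to 143 bases before the start, TATATA at 28 to 23 and AGGTCA at 14 to 9. In the Pck1 window TGACG lay on the opposite strand at 90 to 86 bases before the start, and TATATA at 38 to 33. The Adipoq window held CCAAT 3 times, on the opposite strand at 34 to 30 and 27 to 23 bases before the start and on the same strand at 7 to 3, and none of the other motifs. These are matches of letters and say nothing of whether a factor binds there.

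Across the 5 arrays the fat genes were high in both wild-type lines, low in 4D(-/-) and C57, and divided in 4B(-/-). There Adipoq, Retn, Fabp4 and Cidec kept the level of 4B(+/+) to within 1.5-fold, whereas Ucp1, Cidea and Pck1 were lower. In bulk lung RNA, fewer fat cells and less RNA per fat cell cannot be told apart. The summed intensity of the 7 genes was 8543 in 4B(-/-) and 10849 in 4B(+/+), 3549 in 4D(-/-) and 12880 in 4D(+/+), and 4311 in C57. Fabp4 was the largest part of each sum, from 2292 in 4D(-/-) to 6939 in 4D(+/+), so the sums mainly follow this gene.

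**Figure D1:**
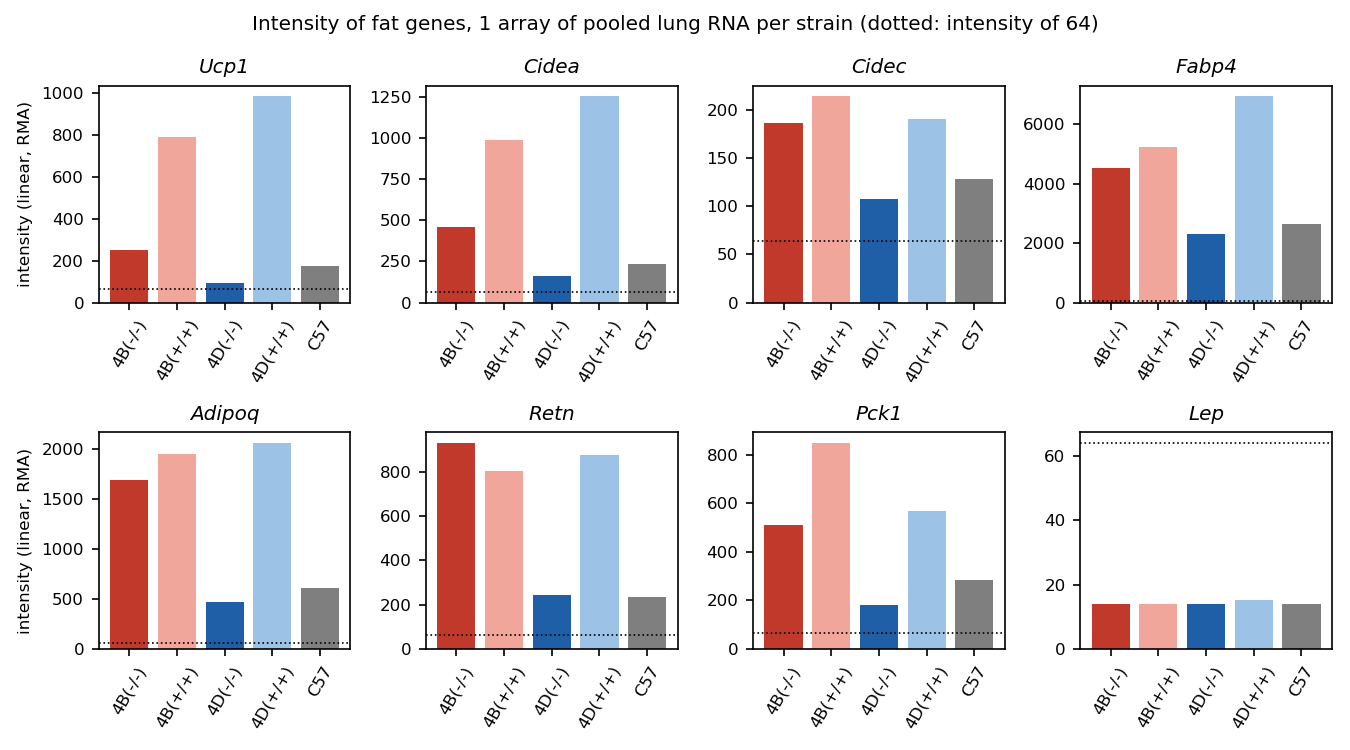
Linear RMA intensity of the 8 measured fat genes, with 1 bar per array and no error bars because each strain has 1 array. In 4D(-/-) every gene but Retn and Lep has its lowest bar, and Lep lies under the dotted line at 64 in all arrays.

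Ucp1 and Cidea, the brown fat genes of the list, had the widest ranges among the members over the floor. Both were among the genes whose differences led to the choice of this set, so nothing is read from that ranking. Ucp1, which uncouples respiration from ATP synthesis, read 251 in 4B(-/-) and 792 in 4B(+/+), 92.2 in 4D(-/-) and 986 in 4D(+/+), and 176 in C57. Its highest array, 4D(+/+), was 10.7-fold above its lowest, 4D(-/-). Cidea, a lipid droplet protein of brown adipocytes in the mouse, read 462 in 4B(-/-) and 993 in 4B(+/+), 164 in 4D(-/-) and 1257 in 4D(+/+), and 237 in C57. The order of the 5 arrays was the same for both genes.

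The lipid droplet and fatty acid binding genes covered a smaller range. Cidec, which fuses lipid droplets, read 187 in 4B(-/-) and 214 in 4B(+/+), 107 in 4D(-/-) and 191 in 4D(+/+), and 127.9 in C57. The highest and lowest arrays of Cidec differed by 1.99-fold, less than those of the other 6 genes. Fabp4, the fatty acid carrier of adipocytes, read 4512 in 4B(-/-) and 5247 in 4B(+/+), 2292 in 4D(-/-) and 6939 in 4D(+/+), and 2634 in C57. A second Fabp4 probe set gave 1242 in 4B(-/-) and 1411 in 4B(+/+), 910 in 4D(-/-) and 1759 in 4D(+/+), and 1077 in C57. Both put 4D(+/+) first and 4D(-/-) last, but 4D(-/-) was 3.03-fold lower by the brightest probe set and 1.93-fold lower by the second. The other Fabp4 probe sets peaked at 89.6 and 82.4 in 4D(+/+), where they were 2.21-fold and 5.39-fold above 4D(-/-), with values under 64 in at least 3 arrays each.

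Among the secreted products, Adipoq, the hormone adiponectin made by fat cells, read 1689 in 4B(-/-) and 1952 in 4B(+/+), 468 in 4D(-/-) and 2065 in 4D(+/+), and 615 in C57. The 3 high arrays lay within 1.22-fold of each other. Retn, the hormone resistin, which in mice comes mainly from fat, read 931 in 4B(-/-) and 803 in 4B(+/+), 244 in 4D(-/-) and 877 in 4D(+/+), and 236 in C57. Retn was the only one of the 7 genes with its highest value in 4B(-/-) and its lowest in C57, where the reading was 1.03-fold below that of 4D(-/-). Lep, which encodes the satiety hormone leptin of white fat, read 14.0 after rounding in 4 arrays and 15.2 in 4D(+/+), so no fold is given for it.

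Pck1, the cytosolic enzyme that supplies glycerol for triglyceride in fat and glucose in liver and kidney, read 511 in 4B(-/-) and 848 in 4B(+/+), 182 in 4D(-/-) and 566 in 4D(+/+), and 285 in C57. It was the only one of the 7 genes apart from Cidec with its highest value in 4B(+/+). Its other 2 probe sets stayed below 64 in all arrays, at 37.6 or less. Of 5 liver genes looked for, 4 were measured, and albumin (Alb), Apoa1, Ttr and Ahsg all stayed at or below 49.5.

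Against its own wild-type line 4B(-/-) had 3 of the 7 genes lower by at least 1.5-fold and 0 higher. Over all 11500 genes that reached the floor in at least 1 array, 0.93% were lower and 0.383% higher by that fold, and the median log2 difference was 0.01. The median log2 difference of the 7 genes was -0.22. Ucp1 was 3.15-fold lower, Cidea 2.15-fold and Pck1 1.66-fold, while Fabp4, Adipoq and Cidec were lower by 1.16-fold, 1.16-fold and 1.15-fold and Retn was 1.16-fold higher.

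In 4D(-/-) all 7 genes were lower than in 4D(+/+) by at least 1.5-fold, with a median log2 difference of -1.85. Among all genes 4.53% were lower and 1.1% higher by that fold, with a median of 0. Ucp1 was 10.7-fold lower and Cidea 7.64-fold. Adipoq was 4.41-fold lower, Retn 3.60-fold, Pck1 3.11-fold, Fabp4 3.03-fold and Cidec 1.78-fold. The genes were chosen on differences of this kind, so nothing is read from these counts against the shares of all genes.

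**Figure D2:**
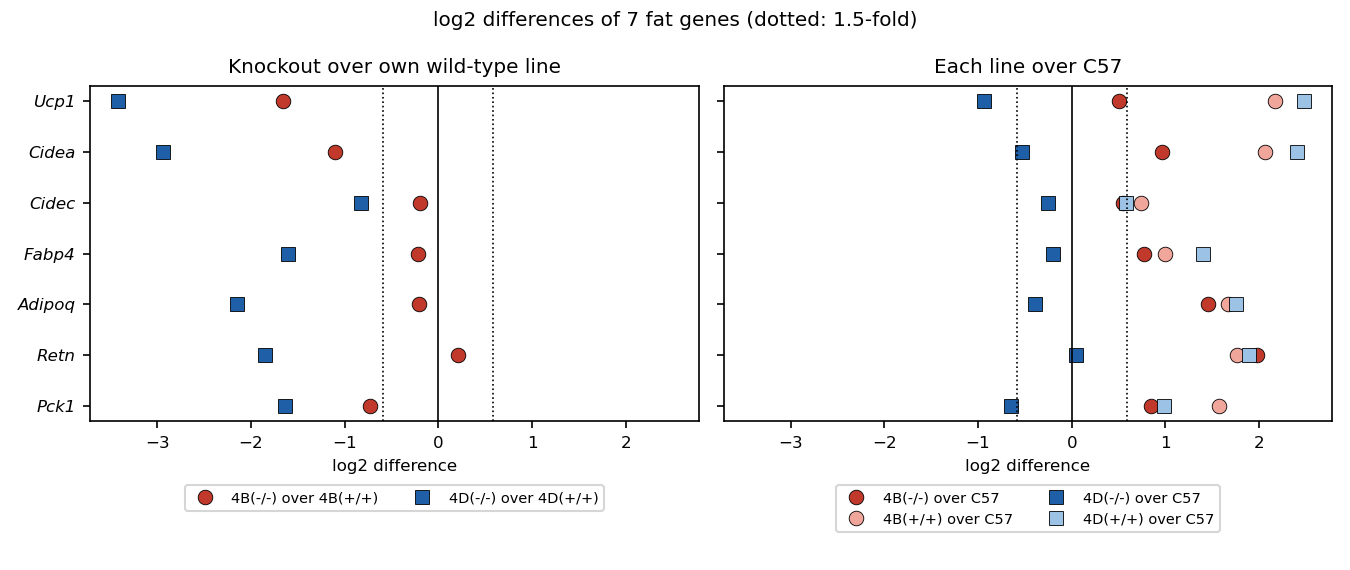
log2 differences of the 7 fat genes over the floor, with each knockout over its own wild-type line on the left and each line over C57 on the right. Dotted lines mark 1.5-fold. On the left the 4D points lie between -3.42 and -0.83 and the 4B points between -1.66 and 0.21.

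Both wild-type lines stood above C57, an array that both comparisons share. In 4B(+/+) all 7 genes were at least 1.5-fold higher, against 2.23% of all genes higher and 1.33% lower, with a member median of 1.67 on the log2 scale and an all-gene median of 0. In 4D(+/+) 6 were higher, against 4.25% of all genes higher and 1.24% lower, with a member median of 1.75 and an all-gene median of 0.00, and Cidec fell just short at 1.49-fold. Ucp1 was 4.49-fold above C57 in 4B(+/+) and 5.59-fold in 4D(+/+), and Cidea 4.19-fold and 5.30-fold. Retn was 3.40-fold higher in 4B(+/+) and 3.71-fold in 4D(+/+), and Adipoq 3.18-fold and 3.36-fold. Pck1 was 2.98-fold higher in 4B(+/+) and 1.99-fold in 4D(+/+). Fabp4 was 1.99-fold higher in 4B(+/+) and 2.63-fold in 4D(+/+), but by its second probe set 1.31-fold, under 1.5-fold, and 1.63-fold.

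The counts of each knockout differed when C57 was the control. Over C57, 4D(-/-) had 2 genes lower by at least 1.5-fold, Ucp1 at 1.91-fold and Pck1 at 1.57-fold, and 0 higher, against 0.791% of all genes lower and 1.37% higher. The other 5 genes lay between 1.44-fold lower (Cidea) and 1.03-fold higher (Retn), and the member median was -0.39 on the log2 scale against -0.02 for all genes. At a fold of 2, 0 of the 7 were lower, against 0.2% of all genes. In 4B(-/-), by contrast, 5 genes were higher than in C57 by at least 1.5-fold and 0 lower, against 2.53% of all genes higher and 3.57% lower. Retn was 3.94-fold higher, Adipoq 2.75-fold, Cidea 1.95-fold, Pck1 1.79-fold and Fabp4 1.71-fold, while Cidec was at 1.46-fold and Ucp1 at 1.42-fold. By its second probe set Fabp4 was 1.15-fold higher. The member median was 0.84 on the log2 scale against 0.01 for all genes. At a fold of 2 the count was 2, against 0.687% of all genes. Cidea and Pck1 in 4B(-/-) thus lay at least 1.5-fold under 4B(+/+) and at least 1.5-fold over C57.

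Between the knockouts, all 7 genes were at least 1.5-fold higher in 4B(-/-) than in 4D(-/-), against 2.97% of all genes higher and 2.8% lower. For Fabp4 this rests on the brightest probe set, at 1.97-fold, since the second gave 1.36-fold and the median of its probe sets a log2 difference of 0.37, under 1.5-fold. The folds lay between 1.74 for Cidec and 3.82 for Retn, with Ucp1 at 2.72-fold, and the member median was 1.49 on the log2 scale against 0.03 for all genes. Between the wild-type lines, 0 of the 7 passed 1.5-fold in 4D(+/+) over 4B(+/+), against 1.57% of all genes higher and 0.348% lower, with medians of 0.13 for the members and 0 for all genes. Pck1 came closest, 1.498-fold lower in 4D(+/+) and just inside the limit, and Fabp4 was 1.32-fold higher.

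The fat genes did not move by equal amounts within a comparison. Taking the median log2 difference of the 7 genes as their common shift, Ucp1 stood at -1.44 from it in 4B(-/-) over 4B(+/+) and at -1.57 in 4D(-/-) over 4D(+/+). Cidea stood at -0.89 in the 4B comparison and at -1.09 in the 4D comparison. The other 5 genes lay between -0.51 (Pck1) and 0.43 (Retn) around the common shift in the 4B comparison and between -0.29 (Adipoq) and 1.02 (Cidec) in the 4D comparison. In 4B(-/-) over 4D(-/-), the comparison of both knockouts, Ucp1 and Cidea stood at -0.04 and 0.00, while Retn stood at 0.45 and Cidec at -0.69. The widest departure of Retn, 1.14 above the common shift, was in 4B(-/-) over C57. These comparisons share arrays and are not independent of each other. The set was chosen because Ucp1, Cidea and Pck1 differed between these arrays, so nothing is read from their distance from the common shift.

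**Figure D3:**
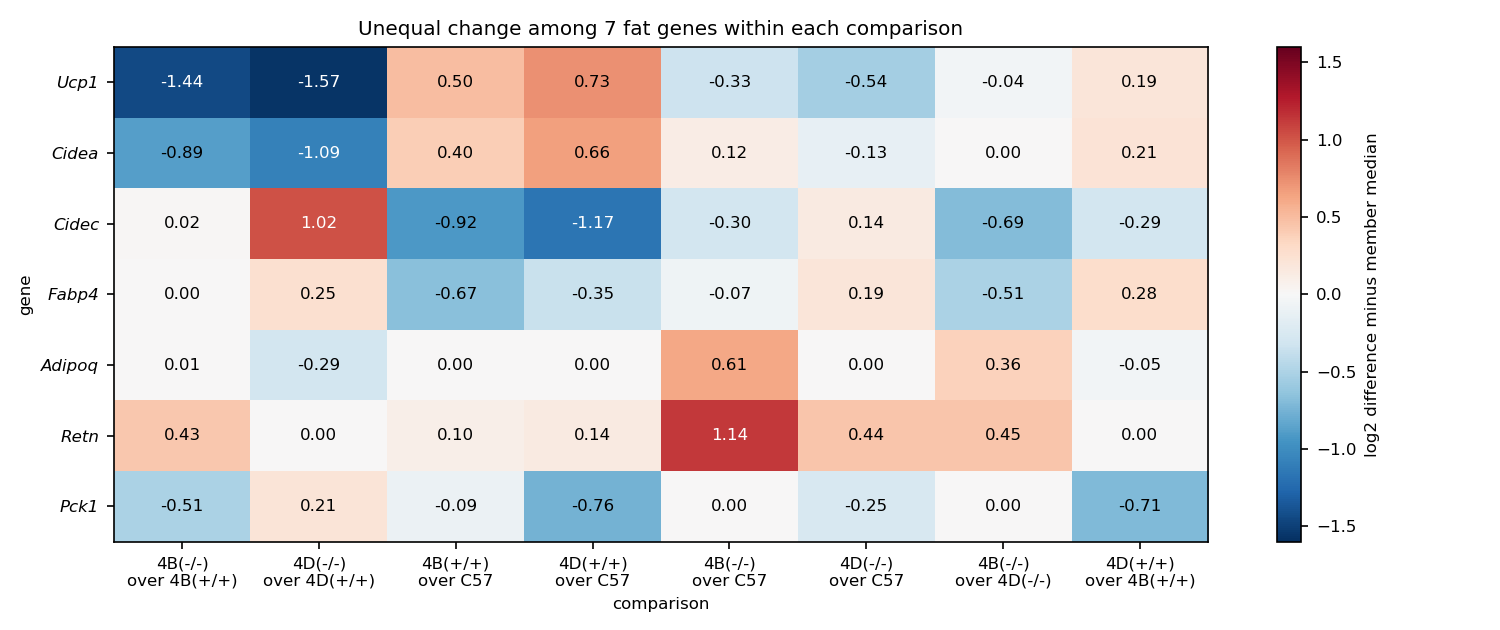
log2 difference of each of 7 fat genes minus the median of the 7 in the same comparison, in 8 comparisons that share arrays. Ucp1 and Cidea have their lowest values where a knockout is set against its own wild-type line, and lie at -0.04 and 0.00 in 4B(-/-) over 4D(-/-). Both were among the genes whose differences led to the choice of the set, so nothing is read from this.

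Other genes of brown fat and heat production moved in part. Of 14 listed, 12 were measured and 10 reached the floor. In 4B(-/-) 1 of the 10, Ebf2, a transcription factor of brown preadipocytes, was lower by at least 1.5-fold than in 4B(+/+). It read 40.9 against 64.8, and the list median was -0.20. Ebf2 reached the floor only in 4B(+/+), the array it was called lower against, so nothing is read from this call. Of all genes, 0.93% were lower by 1.5-fold in the 4B comparison, and 4.53% were lower and 1.1% higher in the 4D comparison. In 4D(-/-) 6 of the 10 were lower than in 4D(+/+) and 0 higher, with a median of -0.65. Ebf2 was 1 of these 6, at 35.1 in 4D(-/-) and 59.2 in 4D(+/+), both under the floor. The respiratory chain subunits Cox8b and Cox7a1 were 5.06-fold and 4.87-fold lower there. Cox8b read 1166 in 4B(-/-) and 1258 in 4B(+/+), 508 in 4D(-/-) and 2571 in 4D(+/+), and 450 in C57. Both subunits are also made by skeletal and heart muscle, as is the fatty acid carrier Fabp3, which was 1.83-fold lower in 4D(-/-). Dio2, which activates thyroid hormone in brown fat, read 112 in 4B(-/-) and 162 in 4B(+/+), 86.1 in 4D(-/-) and 136 in 4D(+/+), and 54.0 in C57. Ppargc1a, a coactivator of mitochondrial genes, stayed between 116 and 147 in the 5 arrays. Elovl3 and Otop1, both strong in brown fat, were under the floor, with highest values of 43.0 and 48.8 in 4D(+/+).

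Genes of lipid droplets and lipolysis gave 1 of 16 lower in 4B(-/-) than in 4B(+/+) and 5 of 16 lower in 4D(-/-) than in 4D(+/+), with 0 higher in either and medians of -0.04 and -0.30. Of all genes, 0.93% were lower in the 4B comparison and 4.53% in the 4D comparison. Dgat2, the last enzyme of triglyceride synthesis, was the gene past 1.5-fold in both, at 1.61-fold and 2.83-fold lower. It read 466 in 4B(-/-) and 750 in 4B(+/+), 265 in 4D(-/-) and 751 in 4D(+/+), and 347 in C57. Agpat2, which makes phosphatidic acid for triglyceride, was 2.09-fold lower in 4D(-/-), G0s2, an inhibitor of lipolysis, 1.83-fold, and the droplet protein Plin5 1.62-fold. Cd36, a fatty acid transporter also abundant in lung endothelium, stayed between 5836 and 6885 in all arrays.

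The transcription factors of fat cell formation stayed within 1.5-fold. Of 9 over the floor, 0 passed it in any of the 8 comparisons, where medians ran from -0.04 to 0.08. Few of all genes did, at most 4.53% lower and at most 4.25% higher in a comparison. A count of 0 among 9 genes is therefore near the share of all genes. Pparg, the master regulator of adipocytes, read 112 in 4B(-/-) and 141 in 4B(+/+), 87.6 in 4D(-/-) and 121 in 4D(+/+), and 109 in C57. Its order of arrays began with 4B(+/+) and ended with 4D(-/-). Cebpd, an early factor of adipocyte formation that many lung cells also use, was 1.39-fold higher in 4D(-/-) than in 4D(+/+).

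Around Pck1, genes of glycerol and glucose synthesis gave 1 of 6 lower in 4B(-/-) and 3 of 6 lower in 4D(-/-) than in the own wild-type line, beside 0.93% and 4.53% of all genes, with medians of -0.05 and -0.49. Gpd1, which makes glycerol phosphate for triglyceride, was lower in both, by 1.53-fold in 4B(-/-) and 2.57-fold in 4D(-/-). Got1 was 1.88-fold and Pcx, which makes oxaloacetate, 1.67-fold lower in 4D(-/-). Pck2, the mitochondrial counterpart of Pck1, stayed between 267 and 303 in the 5 arrays, and the liver enzyme G6pc was under the floor, at 13.9 or less.

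Fatty acid synthesis gave 0 of 13 genes past 1.5-fold in 4B(-/-) over 4B(+/+), with a median of -0.16, and 5 of 13 lower with 0 higher in 4D(-/-) over 4D(+/+), with a median of -0.47. Among all genes 0.93% were lower and 0.383% higher in the 4B comparison, and 4.53% and 1.1% in the 4D comparison. Thrsp, a regulator of lipid synthesis in fat and liver, was 4.81-fold lower in 4D(-/-), the elongase Elovl6 2.89-fold, and Mlxipl, a glucose-responsive factor, 2.40-fold. Thrsp read 1509 in 4B(-/-) and 2082 in 4B(+/+), 757 in 4D(-/-) and 3643 in 4D(+/+), and 580 in C57.

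Of 11 signalling genes of adipocytes, 1 was lower in 4B(-/-) and 2 were lower in 4D(-/-) by at least 1.5-fold against their wild-type lines, beside 0.93% and 4.53% of all genes, with medians of -0.07 and -0.01. Prkar2b, the regulatory subunit of protein kinase A that is abundant in fat, read 236 in 4B(-/-) and 389 in 4B(+/+), 273 in 4D(-/-) and 421 in 4D(+/+), and 285 in C57. It was 1.65-fold lower in 4B(-/-) and 1.54-fold lower in 4D(-/-). The insulin-responsive glucose transporter Slc2a4, of fat and muscle, was 1.75-fold lower in 4D(-/-) and 1.13-fold lower in 4B(-/-). Pde4b itself was 1.22-fold lower in 4B(-/-) and Pde4d 1.35-fold lower in 4D(-/-), but whether these probe sets lie inside the deleted parts is unknown here.

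**Figure D4:**
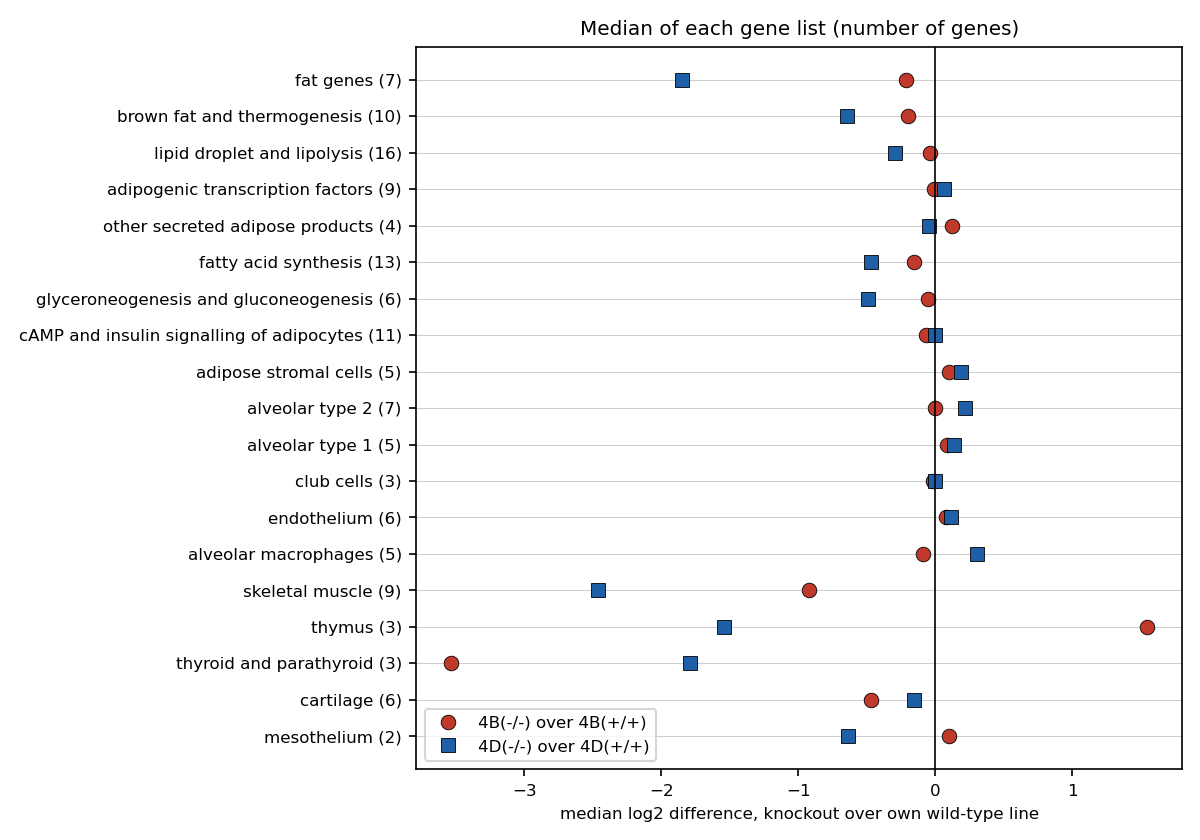
Median log2 difference of the 7 fat genes and of 18 gene lists in each knockout over its own wild-type line, with the number of genes over the floor in brackets. The fat genes have a median of -1.85 in the 4D comparison and -0.22 in the 4B comparison, and lung epithelial and endothelial lists lie between -0.01 and 0.21.

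The summed signals of lung epithelial gene lists were high and differed little between the arrays. The summed intensity of 7 alveolar type 2 genes lay between 67477 and 73623 in the 5 arrays, and that of 3 club cell genes between 55078 and 56239. In either knockout comparison 0 of these, 0 of 5 alveolar type 1 genes and 0 of 6 endothelial genes passed 1.5-fold. Of 5 alveolar macrophage genes, a cell type that also makes Fabp4, 0 passed it in 4B(-/-) over 4B(+/+) and 2 were higher in 4D(-/-) over 4D(+/+), Marco at 2.66-fold and Chil3 at 1.55-fold. Among stromal cells of fat, 0 of 5 genes passed 1.5-fold in either, with medians of 0.10 and 0.19, and Pdgfra, their surface receptor, read 2741 in 4B(-/-) and 2553 in 4B(+/+), 2735 in 4D(-/-) and 2092 in 4D(+/+). Of all genes, 0.93% were lower and 0.383% higher by 1.5-fold in the 4B comparison, and 4.53% and 1.1% in the 4D comparison. The counts of 0 in these lists are near those shares. The summed intensities of the alveolar type 2, alveolar type 1, endothelial and macrophage lists were lowest in 4D(+/+), and that of the club cell list in 4D(-/-).

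Markers of tissues beside the lung also moved between the same arrays. For the counts below, 0.93% of all genes were lower and 0.383% higher by 1.5-fold in 4B(-/-) over 4B(+/+). In 4D(-/-) over 4D(+/+) these shares were 4.53% and 1.1%. All 9 skeletal muscle genes were at least 1.5-fold lower in each knockout than in its own wild-type line, with list medians of -0.93 for 4B(-/-) and -2.47 for 4D(-/-), and their summed intensity was 3212 in 4B(-/-) and 7117 in 4B(+/+), 6833 in 4D(-/-) and 32058 in 4D(+/+), and 3392 in C57. Over C57, 8 of the 9 were higher in 4D(-/-), where 0 of the 7 fat genes were, and 3 of the 9 were lower in 4B(-/-), where 5 fat genes were higher. Among all genes 1.37% were higher in 4D(-/-) than in C57. In 4B(-/-) 3.57% were lower and 2.53% higher than in C57. All 3 thyroid and parathyroid genes, Tg, Pth and Chga, were lower in both knockouts against their own wild-type lines, and summed to 954 in 4B(-/-) and 11005 in 4B(+/+), 4272 in 4D(-/-) and 16543 in 4D(+/+), and 5183 in C57, while Tshr stayed at or below 26.7. The 3 thymus genes over the floor in at least 1 array, Dntt, Rag1 and Ccl25, were all higher in 4B(-/-) than in 4B(+/+). Rag1 and Ccl25 were lower in 4D(-/-) than in 4D(+/+). The 3 genes summed to 809 in 4B(-/-) and 281 in 4B(+/+), 95.2 in 4D(-/-) and 267 in 4D(+/+), and 89.0 in C57. In 4D(-/-) and C57 all 3 were under the floor, in 4D(-/-) Dntt at 47.5, Rag1 at 10.6 and Ccl25 at 37.1. Nothing is therefore read from the lower calls in 4D(-/-). Foxn1 and Ptcra, also of the thymus, stayed at or below 29.6. Of 6 cartilage genes 2 were lower in 4B(-/-) and 1, Col2a1, higher in 4D(-/-) against their wild-type lines. Col2a1 read 35.0 in 4D(+/+), under the floor, so nothing is read from that call. The sums of the 6 genes were 1028 in 4B(-/-) and 1582 in 4B(+/+), 869 in 4D(-/-) and 907 in 4D(+/+), and 359 in C57. Of 2 mesothelial genes over the floor, Msln read 309 in 4B(-/-) and 370 in 4B(+/+), 186 in 4D(-/-) and 418 in 4D(+/+), and 200.2 in C57. This is the array order of Ucp1, Cidea and the summed fat genes. Msln was 2.25-fold lower in 4D(-/-) than in 4D(+/+), and it was at least 1.5-fold above C57 in 4B(-/-), 4B(+/+) and 4D(+/+). Upk3b, the other mesothelial gene, read 412 in 4B(-/-) and 301 in 4B(+/+), 277 in 4D(-/-) and 298 in 4D(+/+), and 276 in C57, while Wt1 stayed at or below 29.0. The part of these tissues in the fat gene differences was not tested.

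**Figure D5:**
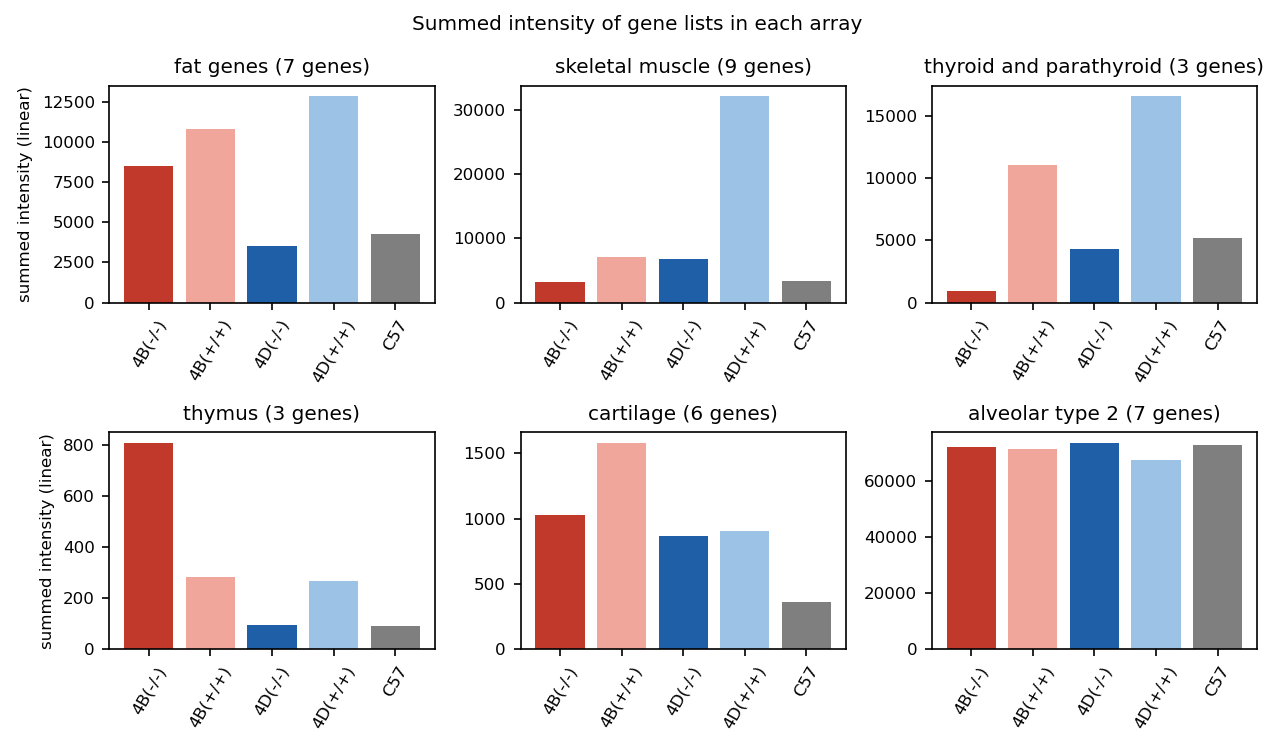
Summed linear intensity of 6 gene lists in each array, 1 bar per array, each panel with its own axis from 0. The fat genes sum to 8543 in 4B(-/-) and 10849 in 4B(+/+), whereas the skeletal muscle and thyroid lists have their lowest bar in 4B(-/-), and the alveolar type 2 bars span 67477 to 73623. Fabp4 is the largest part of each fat gene bar.

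Genes outside the 10 were ranked by the root mean square difference of their log2 profile over the 5 arrays, each centred on its own mean, from those of Ucp1, Adipoq and Pck1. No gene outside the list came as close to Ucp1 as Cidea, at 0.24. The nearest were Amy1 (0.54), Thrsp (0.60), Tmem45b (0.60), the tendon gene Tnmd (0.62) and Mrap (0.63), an accessory protein of the melanocortin receptor. Tmem45b (0.13), the adipocyte gene Adig (0.17), Mrap (0.19), Acsm3 (0.29) and Amy1 (0.30) were nearest to Adipoq, where Retn stood at 0.20 and Ucp1 at 0.63. Tmem45b read 411 in 4B(-/-) and 531 in 4B(+/+), 145 in 4D(-/-) and 602 in 4D(+/+), and 155 in C57, and Adig 274 in 4B(-/-) and 238 in 4B(+/+), 74.5 in 4D(-/-) and 349 in 4D(+/+), and 100.2 in C57. Itln1 (0.28), Dgat2 (0.29), Ifi27l2a (0.32), the fatty acid transporter Slc27a2 (0.33) and Tmem45b (0.33) were nearest to Pck1, where Adipoq stood at 0.29. Several of these genes read under the floor in some arrays. Itln1 reached it only in 4B(+/+), at 75.9. Amy1, Mrap and Acsm3 were under it in at least 4D(-/-) and C57, and Tnmd in both knockouts. Their profiles rest in part on weak signals. With 5 arrays such a likeness is a description of these values only.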

How the data were processed

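Whole-lung RNA was profiled with 1 array per strain. The authors deposited 1 linear intensity value per probe set and array, made with RMA per the submitters' processing notes; the sources used here give neither its version and settings nor a genome build. RMA normalises between arrays and summarises the probes of a set, so small differences can be lost. The median intensity lay between 45.4 and 46.6. Intensities were converted to log2 in Python 3.11.15 with pandas 2.3.3. In the platform annotation 34958 probe sets carried 1 symbol, 932 several and 9211 none, and only those with 1 were used. The brightest probe set on average stood for its gene, which was kept if its highest array reached 64. Differences of at least 1.5-fold were counted. Each knockout was compared with its own wild-type line, each line with C57, the knockouts with each other and the wild-type lines with each other. Of 153 symbols in 19 lists 142 were measured. The genes named were the listed 10, in each list up to 4 with the largest difference in a knockout comparison, from which some are given, and the 5 nearest to Ucp1, Adipoq and Pck1 by array profile. List genes under the floor and the genes named as examples of even levels are outside this rule or chosen from it after their values were seen. Members, lists, motifs and thresholds were chosen with earlier results of these data known. The alternatives were the median of the probe sets, cyclic loess (limma 3.58.1), centring, an offset of 32, a lower and a higher floor, and a fold of 2. The counting and ranking steps were tested on simulated data. Promoters came from RefSeq (GRCm38.p6), matched by symbol with the windows of a chromosome left out, and covered 8 of the 10 genes.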

Additional observations from a re-analysis of the deposited data

Results flagged for a closer look

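Retn moved in opposite directions in the knockout comparisons, with a log2 difference of 0.21 in 4B(-/-) over 4B(+/+) and of -1.85 in 4D(-/-) over 4D(+/+). With 1 array per strain the difference between these comparisons was not tested, and the value in the 4B comparison is within 1.5-fold. The other 6 fat genes were lower in the knockout in both.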

How the results depend on the processing

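No paired analysis was possible because each strain has 1 array. Of 88 recomputed counts and medians 82 stayed close to the reported value, counts within 1.5 times and medians within 0.58 on the log2 scale, and no called difference turned its sign. By this rule a fall from 7 genes to 5 still counted as close. In 4B(-/-) over C57, where 5 genes passed 1.5-fold, 3 did with the median over each gene's probe sets and 2 at a fold of 2. In 4D(-/-) over C57, where 2 passed, 1 did with the median of the probe sets, 1 with an offset of 32 and 0 at a fold of 2. With the median of the probe sets Pck1 fell under the floor, which left 6 genes. In 4D(+/+) over 4B(+/+), where 0 passed, 1 gene, Pck1, did when arrays were centred on their medians. With the median of its probe sets Fabp4 no longer passed 1.5-fold in 4B(-/-) over 4D(-/-) or over C57, at log2 differences of 0.37 in both, so 5 of 6 genes passed between the knockouts. The lower and the higher floor left the same 7 genes. Their counts are among the 82 that stayed close, but they could not change and say nothing of how stable the results are. No scaling moved the median of all genes by more than 0.04. Pooled RNA leaves the spread between animals unmeasured, and intensities near 64 are poorly determined.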

Other observations

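Angptl4, a secreted inhibitor of lipoprotein lipase made by fat, lung and other tissues, followed an order unlike that of the fat genes. It read 1316 in 4B(-/-) and 1340 in 4B(+/+), 1125 in 4D(-/-) and 896 in 4D(+/+), and 732 in C57. It was the only one of the 4 other secreted adipose products over the floor to pass 1.5-fold above C57, in 4B(-/-), 4B(+/+) and 4D(-/-), and in 4D(-/-) it was 1.26-fold higher than in 4D(+/+). Above C57 by 1.5-fold were 2.53% of all genes in 4B(-/-), 2.23% in 4B(+/+) and 1.37% in 4D(-/-). Rarres2, the secreted protein chemerin, read highest in 4B(-/-), at 1746, against 1463 in 4B(+/+), 1260 in 4D(-/-), 1462 in 4D(+/+) and 1287 in C57, and Rbp4, the retinol carrier of blood, was also highest in 4B(-/-), at 614. Retn shared that highest array.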
